A study of Mus musculus with 4 samples.

Results

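The genes described here are 10 enzymes and helpers that modify, fold, trim and crosslink collagen: Lox, Loxl1, Loxl2, Loxl3, Plod1, Plod2, P4ha1, P4ha3, Serpinh1 and Pcolce. They were taken by name from the 32285 genes of the count matrices, and all 10 had at least 1 UMI (a unique molecular identifier, counting 1 captured RNA molecule). Their levels were read as UMIs per 10000 UMIs in each brain slice, in spots with at least 5 Col1a1 UMIs per 10000, called fibrotic spots, and in spots without any Col1a1 UMI, called Col1a1-free spots.

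Spatial transcriptomes of mouse brain with cortical photothrombotic (PT) injury, in which a clot is made in cortical vessels with light, were measured with Visium, whose spots are small regions that can hold several cells. There were 4 capture areas with 2 slices each, every slice from 1 mouse. The wild-type groups were 1 slice at rest and 1 slice at 2 days post injury (dpi), which shared an area, 2 slices at 7 dpi and 2 slices at 21 dpi. The fourth group was 2 slices at 21 dpi from myofibroblast deleter mice, Cthrc1(creER); R26(DTA). In such mice tamoxifen lets a creER allele driven by Cthrc1 switch on diphtheria toxin in cells that express that gene. The study set these mice aside because it could not detect the deletion. Each group of mice was on an area of its own, and effects of the area and of the group cannot be told apart. The slices of a group are called a and b by their place on the area.

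Fibrillar collagen is made as a procollagen chain whose prolines are hydroxylated by prolyl 4-hydroxylases, which lets the triple helix stay folded at body temperature, and whose lysines are hydroxylated by the PLOD enzymes, which sets the kind of crosslink that can form later. The chaperone HSP47, encoded by Serpinh1, holds the folded procollagen in the endoplasmic reticulum. Outside the cell the C-terminal propeptide is cut off, a step that PCOLCE enhances, and the lysyl oxidases LOX and LOXL1 to LOXL4 oxidise lysines so that neighbouring molecules bond. In the injured brain, fibroblasts of the meninges and vessels lay down such a matrix.

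The 6 slices at 7 and 21 dpi held 112 to 392 fibrotic spots and 228 to 651 Col1a1-free spots, with 846868 to 4393668 UMIs in the fibrotic and 3302598 to 9561708 in the Col1a1-free spots. A further 327 to 666 spots per slice had Col1a1 UMIs but fewer than 5 per 10000. These spots belong to neither class. In 7 dpi slice a 77 fibrotic spots lay in the outermost ring of tissue spots and 35 inside it, against 72 and 320 in slice b. Col1a1 was at 13.1 per 10000 in that ring and 16.3 inside in slice a, and at 61.5 and 23.1 in slice b. The fibrotic spots of the 2 slices at 7 dpi thus differ in place. In wild-type slice a at 21 dpi the ring held 59 and the interior 111. The part of this difference in the results was not tested. The slice at rest had 3 fibrotic spots. The slice at 2 dpi had 26, and 17 of these rested on a single Col1a1 UMI. Summed markers of fibroblasts (7 genes, Dcn and Pdgfra among them) were at 16.6 to 57.3 UMIs per 10000 in fibrotic spots of the 6 slices and at 4.84 to 6.11 in their Col1a1-free spots, with no marker at 0. Macrophage and microglia markers were at 29.2 to 43.9 against 3.28 to 16.4, and neuron markers at 7.67 to 12.7 against 29.8 to 62.9. Mural markers were at 2.67 to 3.29 against 0.68 to 1.28. Bone and cartilage markers were at 0.213 to 1.21 against 0.0603 to 0.138, highest in 7 dpi slice b. Wild-type slice b at 21 dpi also had oligodendrocyte markers at 106 against 59.7 and choroid plexus markers at 34.8 against 3.63. Oligodendrocyte markers were lower in fibrotic spots of every other slice. Choroid plexus markers were higher in Col1a1-free than in fibrotic spots of 7 dpi slice a, at 42 against 6.08. The same held for wild-type slice a at 21 dpi (78.7 against 6.66) and for deleter slices a (4.67 against 1.83) and b (50.3 against 2.66). In 7 dpi slice b they were at 2.31 in Col1a1-free and 3.47 in fibrotic spots. The part of these cell types in the results that follow was not tested. In tissue spots, more cells of a type and more RNA per cell cannot be told apart. Deleter slice a and both 7 dpi slices carried Xist RNA, whereas deleter slice b and both wild-type slices at 21 dpi carried Ddx3y RNA, so that sex differs between the wild-type times.

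Promoter sequence was at hand for 5 of the 10 genes (Plod1, Pcolce, Serpinh1, P4ha1 and P4ha3). Below, Serpinh1 rose steeply and P4ha1 slightly with Col1a1, whereas P4ha3 rose at every step in 1 of 6 slices. For these 3 genes the 250 bases before the start are shown. They were taken from RefSeq on GRCm38.p6: chr7:99353240-99353489 on the minus strand for Serpinh1, chr10:59323046-59323295 on the plus strand for P4ha1 and chr7:100285270-100285519 on the plus strand for P4ha3. Capitals mark the letters ACGTG and GCGTG on either strand, the core that hypoxia-inducible factors bind, since several collagen hydroxylases are known to be induced by low oxygen.
Serpinh1: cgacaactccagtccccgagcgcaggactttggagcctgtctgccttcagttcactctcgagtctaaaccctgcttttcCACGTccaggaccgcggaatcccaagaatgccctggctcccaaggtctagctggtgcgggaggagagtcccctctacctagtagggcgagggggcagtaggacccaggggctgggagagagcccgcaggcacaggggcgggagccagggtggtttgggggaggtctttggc
P4ha1: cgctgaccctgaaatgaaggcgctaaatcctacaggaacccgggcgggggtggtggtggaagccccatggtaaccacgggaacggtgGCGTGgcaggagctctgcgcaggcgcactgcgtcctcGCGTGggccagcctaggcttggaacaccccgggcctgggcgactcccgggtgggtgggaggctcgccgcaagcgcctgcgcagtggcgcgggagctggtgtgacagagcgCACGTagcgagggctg
P4ha3: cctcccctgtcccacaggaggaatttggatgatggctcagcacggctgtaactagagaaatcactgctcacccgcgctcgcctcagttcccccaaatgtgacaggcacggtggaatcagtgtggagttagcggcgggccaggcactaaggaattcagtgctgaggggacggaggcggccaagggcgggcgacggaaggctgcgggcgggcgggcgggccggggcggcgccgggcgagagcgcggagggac
ACGTG stood in 16.6% and GCGTG in 28.2% of 32851 promoter windows of this length. The P4ha1 window held 1 ACGTG and 2 GCGTG, the Serpinh1 window 1 ACGTG and the P4ha3 window neither. The Plod1 and Pcolce windows, not shown, held 1 GCGTG each. A match is a description of the letters and not a measured binding site.

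The first question was how far the enzymes differed between the spot classes. In the 7 dpi slices 9 of the 10 genes were called higher in fibrotic than in Col1a1-free spots, and in both groups at 21 dpi all 10 were. Across all 14476 genes tested, 22.2% were called higher at 7 dpi, 29% at 21 dpi in wild type and 28.8% at 21 dpi in deleter slices. The median log2 fold change of the 10 genes was 3.42 at 7 dpi, 3.55 at 21 dpi in wild type and 3.86 in deleter slices, whereas the median of all genes tested was -0.00013, 0.01 and 0.02. UMIs were added up within each slice and spot class and tested with edgeR (quasi-likelihood), with the slice as a block and Benjamini-Hochberg adjustment over all genes. The only member that did not pass was P4ha3 at 7 dpi, with a log2 fold change of 0.74 (SE 0.30, adjusted p = 0.069). It passed under 4 of 17 alternatives. Without spots of at least 50 Ttr UMIs per 10000, a limit set after the data were seen, it was at 0.89 (adjusted p = 0.0189). With at least 10 Col1a1 UMIs per 10000 for fibrotic spots it was at 0.91 (adjusted p = 0.0261). With no filter on low counts it was at 0.72 (adjusted p = 0.0419). When 1 slice was left out, it ranged from 0.013 to 1.19, the latter without 7 dpi slice a. Col1a1 itself chose the spots and was not tested. Genes abundant in the same cells as Col1a1 differ between the classes by construction. The comparison therefore cannot decide on its own whether the enzymes lie where collagen is made.

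**Figure D1:**
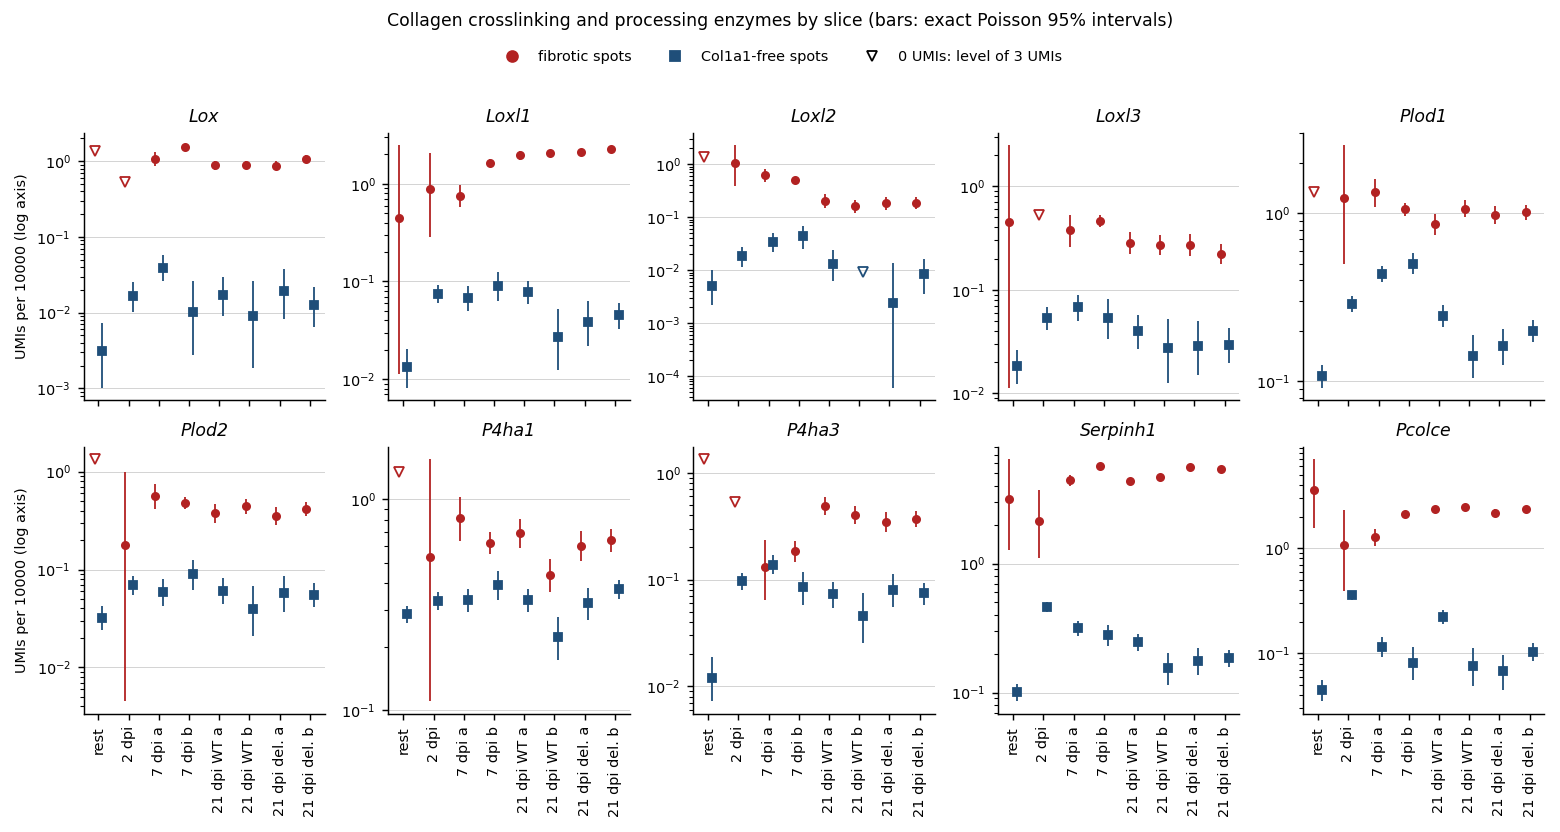
UMIs per 10000 (log axis) of the 10 genes in fibrotic spots (circles) and Col1a1-free spots (squares) of the 8 slices, with exact Poisson 95% intervals that cover counting error only; open triangles mark classes with 0 UMIs, drawn at the level of 3 UMIs. In the 6 slices at 7 and 21 dpi the circles lie above the squares for every gene but P4ha3 in 7 dpi slice a, and the gap is small for P4ha1 and, at 7 dpi, for P4ha3.

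Among the crosslinkers, Lox, the founding lysyl oxidase, was close to absent from Col1a1-free spots. In fibrotic spots it was at 1.06 and 1.52 UMIs per 10000 in 7 dpi slices a and b, at 0.885 and 0.887 in wild-type slices a and b at 21 dpi, and at 0.876 and 1.08 in deleter slices a and b. In Col1a1-free spots the same 6 slices had 0.0394, 0.0102, 0.0172, 0.0091, 0.0193 and 0.0126, from 28, 4, 13, 3, 8 and 12 UMIs. Every fibrotic value lay above every Col1a1-free value. The share of all genes without overlap was not counted, here and for the members below. The log2 fold change was 5.58 (SE 0.36, adjusted p = 5.51e-06) at 7 dpi and 5.97 (SE 0.39, adjusted p = 1.42e-06) at 21 dpi in wild type.

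Loxl1, which is known for crosslinking elastic fibres, was at 0.756 and 1.65 per 10000 in fibrotic spots at 7 dpi, at 1.95 and 2.05 at 21 dpi in wild type and at 2.11 and 2.29 in deleter slices. In Col1a1-free spots it was between 0.0273 and 0.0896. The classes did not overlap, and the log2 fold change was 3.95 (SE 0.28, adjusted p = 8.63e-06) at 7 dpi and 5.17 (SE 0.27, adjusted p = 4.24e-07) at 21 dpi in wild type. Loxl2, which also crosslinks the collagen of basement membranes, gave 3.95 (SE 0.36, adjusted p = 3.61e-05) and 4.50 (SE 0.50, adjusted p = 3.91e-05). Its Col1a1-free levels rested on 0 to 24 UMIs, with 0 in wild-type slice b at 21 dpi, where 0 UMIs allow a level of up to 0.00908. Loxl3, the remaining lysyl oxidase of the group, gave 2.88 (SE 0.25) and 3.07 (SE 0.26), with levels of 0.223 to 0.464 in fibrotic and 0.0273 to 0.0675 in Col1a1-free spots.

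Both lysyl hydroxylases rose in fibrotic spots. Plod2, the enzyme that hydroxylates lysines of the collagen telopeptides, was at 0.354 to 0.567 per 10000 in fibrotic spots of the 6 slices and at 0.0394 to 0.0896 in Col1a1-free spots. Its log2 fold change was 2.89 (SE 0.27, adjusted p = 4.05e-05) at 7 dpi, and it was 8-fold higher (adjusted p = 1.16e-05) at 21 dpi in wild type. Plod1, which acts on the helical part of the chain, was at 0.863 to 1.33 in fibrotic spots and between 0.142 and 0.502 in Col1a1-free spots, without overlap. Its log2 fold change was 1.41 (SE 0.22, adjusted p = 0.000672) at 7 dpi and 2.33 (SE 0.23, adjusted p = 1.97e-05) at 21 dpi in wild type.

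Of the catalytic subunits of prolyl 4-hydroxylase, P4ha1, the widely expressed one, was at 0.438 to 0.815 per 10000 in fibrotic spots and at 0.221 to 0.392 in Col1a1-free spots. Its lowest fibrotic value, 0.438, and its lowest Col1a1-free value, 0.221, came from the same wild-type slice b at 21 dpi. The log2 fold change was 1.03 (SE 0.17, adjusted p = 0.00111) at 7 dpi, 1.08 (SE 0.17, adjusted p = 0.000479) at 21 dpi in wild type and 0.82 (SE 0.16, adjusted p = 0.00178) in deleter slices. P4ha3, a less widely expressed subunit, was at 0.13 and 0.184 in fibrotic spots of 7 dpi slices a and b, against 0.138 and 0.0845 in their Col1a1-free spots. These classes overlapped. At 21 dpi the fibrotic values were 0.487 and 0.403 in wild-type slices a and b and 0.346 and 0.372 in deleter slices a and b, against 0.0726, 0.0454, 0.0796 and 0.0743 in Col1a1-free spots. No value overlapped there, and the log2 fold change was 2.94 (SE 0.27, adjusted p = 9.78e-06) in wild type and 2.22 (SE 0.25, adjusted p = 4.4e-05) in deleter slices.

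Serpinh1, the chaperone gene, had fibrotic levels of 4.43 and 5.74 per 10000 at 7 dpi, 4.36 and 4.69 at 21 dpi in wild type and 5.6 and 5.4 in deleter slices. Its Col1a1-free levels ran from 0.154 to 0.317. The log2 fold change was 4.16 (SE 0.20, adjusted p = 1.06e-06) at 7 dpi and 4.53 (SE 0.20, adjusted p = 1.84e-07) at 21 dpi in wild type. Pcolce, the enhancer of propeptide removal, was at 1.28 and 2.12 in fibrotic spots at 7 dpi, 2.34 and 2.45 at 21 dpi in wild type and 2.17 and 2.36 in deleter slices. Its log2 fold change was 4.12 (SE 0.36, adjusted p = 2.57e-05) at 7 dpi and 4.02 (SE 0.33, adjusted p = 5.39e-06) at 21 dpi in wild type. In the annotation Pcolce overlaps Fbxo24 on the same strand, Loxl3 overlaps Htra2 on the opposite strand and Lox, Loxl2 and Plod2 overlap unnamed or antisense genes, so that a share of these UMIs could belong to the partner.

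Many other genes of collagen modification, folding, export and processing were higher in fibrotic spots too. Of 29 such genes, 26 were tested: 20 were called higher in fibrotic spots and none lower at 7 dpi, 18 and none at 21 dpi in wild type, and 21 and none in deleter slices. Over all genes the shares called higher were 22.2%, 29% and 28.8%. Of the 26, 24 had a log2 fold change above 0 in each group, and Colgalt2 and Pcolce2 were below 0 without passing. The median log2 fold change of the 26 genes was 1.49, 1.76 and 2.02. Adamts2, which removes the N-terminal propeptide, gave 3.25 at 7 dpi and 4.30 at 21 dpi in wild type, and Fkbp10, a folding partner of the lysyl hydroxylases, gave 2.92 and 3.15. P4hb, the shared beta subunit of prolyl 4-hydroxylase, gave 1.58 and 1.99. The members that did not pass included the export genes Mia2 and Mia3, which carry procollagen out of the endoplasmic reticulum, at 0.24 and 0.28 at 7 dpi. All 7 substrate genes tested (Col1a2, Col3a1, Col4a1, Col5a1, Col5a2, Col6a1 and Eln) were higher in all 3 groups. Of 13 genes known to be induced by hypoxia, 3 were higher and 2 lower in fibrotic spots at 7 dpi, and 4 were higher and 4 lower at 21 dpi in wild type. In deleter slices 6 were higher and 3 lower. Over all genes, higher ones made up 51.8%, 51.4% and 52.0% of the calls in the 3 groups, the rest being lower. The hypoxia counts were not tested against these shares or against the shares called higher.

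Within a slice, most of the 10 genes climbed with Col1a1 in steps. When spots were divided into those with 0, above 0 to under 5, 5 to under 20, and 20 or more Col1a1 UMIs per 10000, 7 genes (Lox, Loxl1, Loxl2, Plod1, Pcolce, Serpinh1 and P4ha1) were higher at every step in 6 of 6 slices. Of 13262 genes with at least 50 UMIs in the fibrotic spots of these slices, 3.43% did so. The steps are set by Col1a1, which also chose the fibrotic spots, so genes abundant in the same cells rise by construction. The rise cannot decide on its own whether the enzymes lie where collagen is made. Loxl3 and Plod2 rose at every step in 5 of 6 slices. Serpinh1 went from 0.245 over 0.703 and 3.11 to 6.69 per 10000 in wild-type slice a at 21 dpi and from 0.317 over 0.583 and 3.62 to 8.37 in 7 dpi slice a. P4ha1 in the same slices went from 0.333 over 0.437 and 0.66 to 0.755, and from 0.332 over 0.42 and 0.797 to 0.899.

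P4ha3 was the exception, rising at every step in 1 of 6 slices (7 dpi slice b). At 21 dpi its level peaked in spots with 5 to under 20 Col1a1 UMIs per 10000, at 0.557 and 0.542 in wild-type slices a and b and at 0.403 and 0.427 in deleter slices a and b. In spots with 20 or more it was 0.358, 0.234, 0.271 and 0.305 in the same slices. The peak lay in the 5 to under 20 class in 4 of 4 slices at 21 dpi. The share of all genes with such a peak was not counted, so how unusual it is remains unknown.

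**Figure D2:**
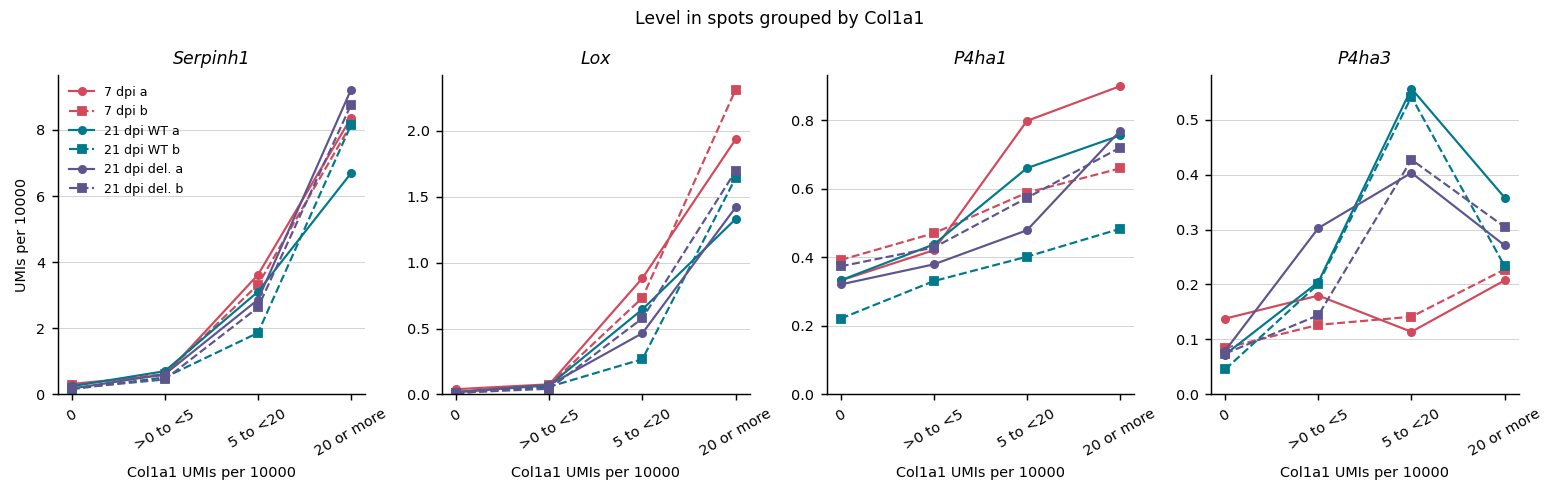
UMIs per 10000 of Serpinh1, Lox, P4ha1 and P4ha3 in spots grouped by Col1a1 UMIs per 10000, with 1 line for each of the 6 slices at 7 and 21 dpi. Serpinh1, Lox and P4ha1 rise at every step in every slice drawn, whereas P4ha3 peaks in the 5 to under 20 class in the 4 slices at 21 dpi and stays at or below 0.227 in the slices at 7 dpi.

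Position was described with the same Col1a1 rule, so it shares the limit of the Col1a1 classes and adds no separate evidence. Fibrotic spots were called core when every neighbouring tissue spot was fibrotic, and rim otherwise. Lox, Loxl1, Loxl2, Plod2, Pcolce and Serpinh1 were higher in the core in 6 of 6 slices, which 8.62% of 13262 genes were, with median core to rim ratios of 3.06, 3.49, 1.82, 2.27, 2.61 and 2.81. The ratio for Col1a2 was 4.36. P4ha3 was lower in the core in 4 of 6 slices, all 4 of them at 21 dpi, with a median ratio of 0.771. In wild-type slices a and b at 21 dpi it was 0.341 and 0.278 per 10000 in the core against 0.618 and 0.559 in the rim. Deleter slice a had 0.257 against 0.416 and deleter slice b 0.358 against 0.389, which is the smallest of these 4 gaps. No test was made of core against rim, and the share of all genes lower in the core at 21 dpi was not counted.

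**Figure D3:**
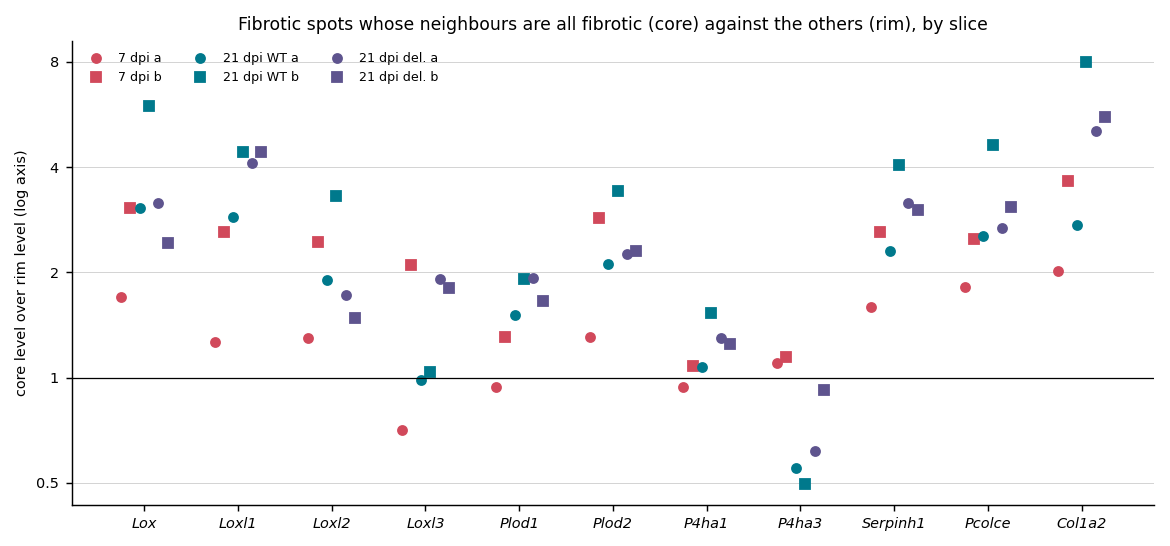
Ratio of the level in core spots to that in rim spots (log axis) for the 10 genes and Col1a2 in each of the 6 slices. Most points lie above the line at 1, with Lox between 1.7 and 5.97, whereas the 4 points of P4ha3 at 21 dpi lie below it, the lowest at 0.498.

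The next question was how the fibrotic spots changed between 7 and 21 dpi in wild type. Loxl2 fell and P4ha3 rose, and the other 8 genes did not pass the test. In this comparison 606 of 13288 genes were called, or 4.56%, with 1.81% higher and 2.75% lower at 7 dpi. Loxl2 was at 0.626 and 0.498 per 10000 at 7 dpi and at 0.206 and 0.161 at 21 dpi, from 53, 219, 46 and 46 UMIs. Loxl2 was 2.97-fold higher at 7 dpi (log2 fold change 1.57, SE 0.22, adjusted p = 0.0026). The groups did not overlap, but the share of all genes without overlap was not counted. P4ha3 rested on 11, 81, 109 and 115 UMIs in the same slices and was 2.61-fold lower at 7 dpi (log2 fold change -1.39, SE 0.21, adjusted p = 0.00482). Its call was lost when fibrotic spots needed at least 10 Col1a1 UMIs per 10000 (log2 fold change -0.91, adjusted p = 0.0568).

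The deleter slices, also at 21 dpi, had Loxl2 at 0.183 and 0.187 and P4ha3 at 0.346 and 0.372, on the side of the wild-type slices of the same day. In wild type, sex and time cannot be told apart, and the part of sex in these changes was not tested. Fibroblast markers in fibrotic spots were at 16.6 and 20.7 per 10000 at 7 dpi and at 54.5 and 40.7 at 21 dpi in wild type. Macrophage and microglia markers were at 43.9 and 39.7 against 34.4 and 37.1, and plasma and B cell markers at 0.189 and 0.216 against 1.99 and 3.16. The part of these cells in the change of Loxl2 and P4ha3 was not tested.

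**Figure D4:**
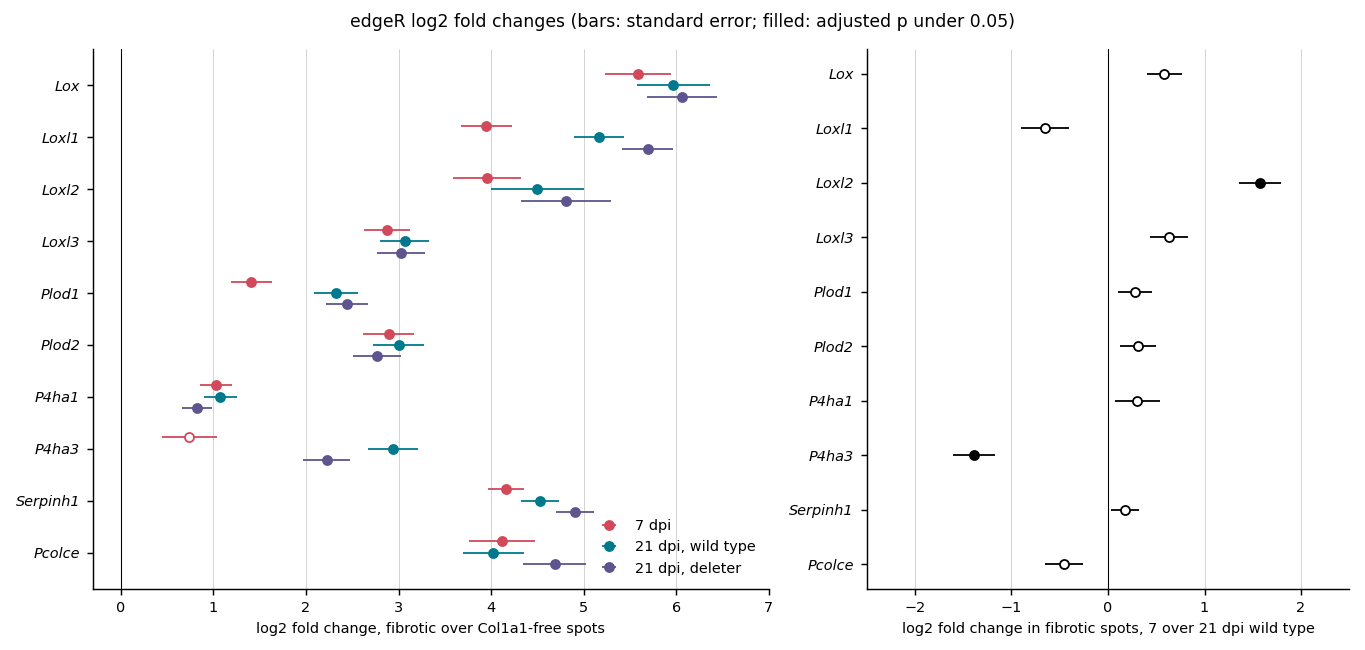
edgeR log2 fold changes with standard errors for the 10 genes: left, fibrotic over Col1a1-free spots at 7 dpi, at 21 dpi in wild type and at 21 dpi in deleter slices; right, 7 over 21 dpi wild type in fibrotic spots. Filled points passed an adjusted p of 0.05: on the left all but P4ha3 at 7 dpi, and on the right only Loxl2, at 1.57, and P4ha3, at -1.39.

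The log2 fold changes of the genes that did not pass were 0.58 for Lox (adjusted p = 0.102), 0.63 for Loxl3 (adjusted p = 0.102), -0.66 for Loxl1 (adjusted p = 0.179) and -0.46 for Pcolce (adjusted p = 0.234). They were 0.28 for Plod1, 0.31 for Plod2, 0.18 for Serpinh1 and 0.31 for P4ha1, with adjusted p from 0.43 to 0.596. Loxl1 and Pcolce were lowest in 7 dpi slice a, with 0.756 and 1.28 per 10000, and without 7 dpi slice b they were at -1.36 and -0.86. With no filter on low counts Loxl1 (adjusted p = 0.00472) and Lox (adjusted p = 0.0202) were called. Loxl1 was also called with at least 10 Col1a1 UMIs per 10000 for fibrotic spots (adjusted p = 0.0226).

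Among the related genes, Plod3, which both hydroxylates and glycosylates lysines, was at 0.803 and 0.949 per 10000 at 7 dpi against 0.554 and 0.533 at 21 dpi in wild type (log2 fold change 0.71, adjusted p = 0.027). Adamts2 was at 0.354 and 0.473 against 0.979 and 1.23 (log2 fold change -1.36, adjusted p = 0.00216). These were the only 2 called of 25 tested. Of the 7 substrates, Col5a1 (0.90, adjusted p = 0.0277) and Col4a1 (0.82, adjusted p = 0.00786) were higher at 7 dpi. Of 12 hypoxia-induced genes tested, Pgk1 was higher (0.83, adjusted p = 0.0142) and Ndrg1 lower (-1.55, adjusted p = 0.00105) at 7 dpi.

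Loxl2 and P4ha3, the genes called between the times, were set beside Loxl1 and P4ha1 of their families, which did not pass. Loxl1 gave 1.21 and 3.32 UMIs per Loxl2 UMI in fibrotic spots of the 7 dpi slices, 9.5 and 12.7 at 21 dpi in wild type and 11.5 and 12.2 in the deleter slices. P4ha3 gave 0.159 and 0.296 UMIs per P4ha1 UMI at 7 dpi, 0.703 and 0.92 at 21 dpi in wild type and 0.574 and 0.582 in deleter slices. In both ratios the 2 slices at 7 dpi lay below the 4 at 21 dpi. The pairs were chosen after the values were seen, and no test was made. The ratios use the same UMIs as the calls of Loxl2 and P4ha3 and do not add to them. UMI capture differs between genes, so that only the change of a ratio between slices is a measurement.

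**Figure D5:**
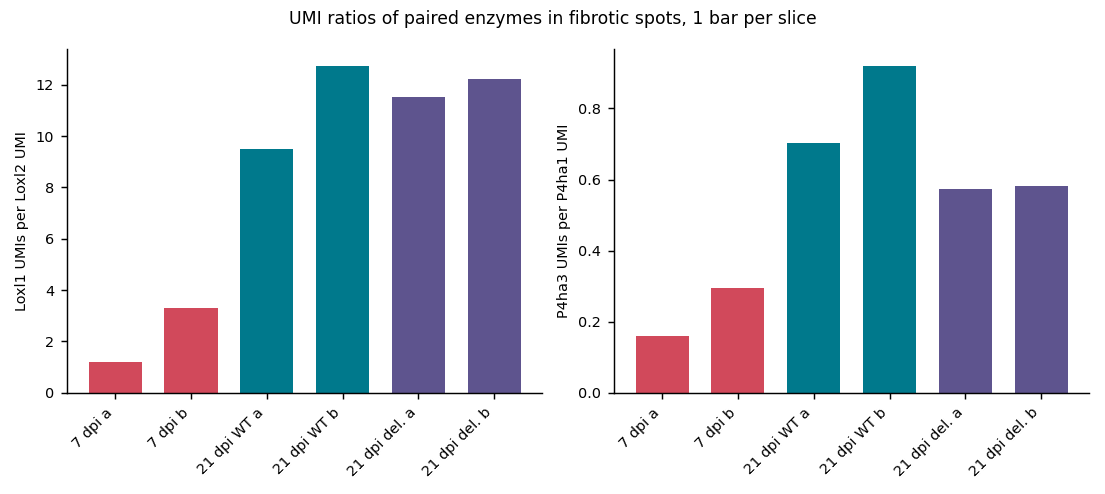
Loxl1 UMIs per Loxl2 UMI (left) and P4ha3 UMIs per P4ha1 UMI (right) in the fibrotic spots of the 6 slices, with 1 bar per slice and axes from 0. The bars at 7 dpi, up to 3.32 and 0.296, are below all bars at 21 dpi, which start at 9.5 and 0.574.

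Whether the excess in fibrotic over Col1a1-free spots itself changed with time was tested as a difference of differences. P4ha3 was the only member called: its log2 excess was smaller at 7 dpi than at 21 dpi in wild type (-2.20, SE 0.40, adjusted p = 0.0176). In all, 2.71% of 14476 genes were called with a smaller excess at 7 dpi and 3.06% in either direction. The call was lost without 7 dpi slice a (-1.75, adjusted p = 0.0942) and without wild-type slice b at 21 dpi (-2.07, adjusted p = 0.0867). Loxl1 (-1.22, SE 0.40, adjusted p = 0.148) and Plod1 (-0.92, SE 0.32, adjusted p = 0.166) had smaller excesses that did not pass. Without wild-type slice a at 21 dpi the values were -2.34 and -1.57. With no filter on low counts both genes were called (adjusted p = 0.0011 and 0.00241). Loxl1 was also called with at least 10 Col1a1 UMIs per 10000 (adjusted p = 0.048) and without the outermost ring of spots (0.0447). It was called without spots of at least 50 Ttr UMIs per 10000 as well (0.0195). The Loxl2 excess differed by -0.55 (SE 0.68, adjusted p = 0.73). Among the 10 members 1 had a difference above 0, and their median was -0.37. Of 6 macrophage and microglia markers 5 were called with a smaller excess at 7 dpi, and of 7 fibroblast markers 1 was. Of 5 neuron markers 3 were called with a larger excess. The part of these cells was not tested. In Col1a1-free spots P4ha3 was higher at 7 dpi by a log2 fold change of 0.90 that did not pass (edgeR adjusted p = 0.216). Of the related genes, Crtap, a partner of prolyl 3-hydroxylase, had an excess that was smaller at 7 dpi (-1.41, adjusted p = 0.032), as did the hypoxia-induced gene Ndrg1 (-1.62, adjusted p = 0.0361).

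Relative to collagen messenger RNA, the 10 genes together gave 37.6 and 25.8 UMIs per 100 UMIs of Col1a2 and Col3a1 in fibrotic spots at 7 dpi, 31.7 and 22 at 21 dpi in wild type and 17.5 and 16.3 in deleter slices. The times overlapped, with a difference of 4.87 and an exact two-sided permutation p of 0.667 (2 slices against 2, where the smallest possible p is 0.333). With Col3a1 alone as the denominator the difference was -6.13, and without 7 dpi slice a it was -1.05, or 0.043 without wild-type slice b at 21 dpi. The deleter slices were below the other 4 slices with this denominator, and not with Col3a1 alone, where the members gave 59.9 and 43.8 UMIs per 100 Col3a1 UMIs at 7 dpi, 67.8 and 48.1 at 21 dpi in wild type and 56.2 and 54.6 in deleter slices. The Col1a2 level of the deleter slices was 53.3 and 60 per 10000, against 11.2 to 31.8 in the 4 wild-type slices.

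In Col1a1-free spots, Plod1 was the only member that passed the test between the times. It was at 0.435 and 0.502 per 10000 at 7 dpi and at 0.246 and 0.142 at 21 dpi in wild type (log2 fold change 1.24, SE 0.24, adjusted p = 0.0414). Of 14149 genes, 3.14% were called and 3.01% were called higher at 7 dpi. These calls were higher at 7 dpi in 95.9% of cases, or in 85.9% with DESeq2. Loxl2, with 24 and 17 UMIs at 7 dpi and 10 and 0 at 21 dpi, had a fitted log2 fold change of 2.14 (SE 0.78) that did not pass (adjusted p = 0.212) and that passed with no filter on low counts (adjusted p = 0.0185). Its difference between the times was therefore not shown to be particular to fibrotic spots. The Plod1 call was lost under 8 of 16 alternatives, among them leaving out either 7 dpi slice (adjusted p = 0.107 and 0.109), wild-type slice b at 21 dpi (0.148) or either deleter slice (0.0816 and 0.0759). Macrophage and microglia markers in these spots were at 14.3 and 16.4 per 10000 at 7 dpi and at 5.06 and 3.28 at 21 dpi.

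Col1a1-free spots 1 or 2 steps from a fibrotic spot were compared with those at least 5 steps away, across the 6 slices. Higher near fibrotic tissue were 3 members: Loxl1 (log2 fold change 1.24, SE 0.38, adjusted p = 0.0427), Plod1 (0.68, SE 0.19, adjusted p = 0.025) and Serpinh1 (0.84, SE 0.23, adjusted p = 0.0254). Of 12464 genes, 5.13% were called higher and 3.78% lower. Higher genes made up 57.6% of the calls, or 68.3% with DESeq2. Serpinh1 was at 0.557 and 0.525 per 10000 near and 0.28 and 0.204 far at 7 dpi, 0.277 and 0.355 against 0.23 and 0.129 at 21 dpi in wild type, and 0.389 and 0.129 against 0.155 and 0.177 in deleter slices. It was higher near in 5 of 6 slices, deleter slice b being the other.

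The near spots rested on few molecules, with 1 to 8 Loxl1 UMIs and 6 to 22 Serpinh1 UMIs in a slice. They were also shallower in every slice, with medians of 4298 UMIs per spot near against 17110 far in 7 dpi slice a. A count of 0 Col1a1 UMIs therefore says less near than far. Among spots with at least 5000 UMIs, Loxl1 (adjusted p = 0.0538) and Serpinh1 (0.065) did not pass, whereas Plod1 did. The calls held under 6 of 18 alternatives for Loxl1 and under 11 of 18 for Plod1 and for Serpinh1. All 3 were lost without 7 dpi slice a (adjusted p = 0.0992, 0.126 and 0.0746) and without 7 dpi slice b (0.133, 0.11 and 0.129). Leaving out wild-type slice b at 21 dpi ended the calls of Loxl1 (0.0539) and Serpinh1 (0.0655). Leaving out wild-type slice a (0.0645) or deleter slice b (0.179) ended that of Loxl1, and leaving out deleter slice a that of Serpinh1 (0.0966). With classes set at 2 or more Col1a1 UMIs, Plod1 was at 0.22 (adjusted p = 0.419). Without the slice as a block Loxl1 (0.0537) and Plod1 (0.0513) did not pass. Macrophage and microglia markers were at 47 and 31 per 10000 near against 10.1 and 8.62 far in the 7 dpi slices, and at 5.32 to 8.92 near against 2.65 to 4.48 far at 21 dpi. Fibroblast markers were at 3.41 and 3.77 near against 6.14 and 5.99 far at 7 dpi, 5.96 and 10.0 against 6.33 and 4.36 at 21 dpi in wild type, and 7.21 and 5.55 against 4.48 and 5.83 in deleter slices. Of the 7 fibroblast markers 2 were called higher near and none lower, with a median log2 fold change of 0.54. The part of these cells was not tested.

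At rest and at 2 dpi there was 1 slice each, so that no test was made. In Col1a1-free spots, which held 973 spots at rest and 1641 at 2 dpi, 9 of the 10 genes were at least 2-fold higher at 2 dpi, whereas 16.2% of 16185 genes with at least 10 UMIs were. Serpinh1 went from 0.1 per 10000 (exact Poisson 95% interval 0.0853 to 0.117) to 0.462 (0.424 to 0.501), Plod1 from 0.107 to 0.289 and P4ha3 from 0.012 to 0.0966. P4ha1 was the exception, with 0.285 (0.259 to 0.312) at rest and 0.33 (0.299 to 0.364) at 2 dpi.

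Choroid plexus markers (Ttr, Folr1 and Kl) were at 176 per 10000 in the Col1a1-free spots at 2 dpi, against 5.52 at rest. Fibroblast markers were at 13.7 against 2.22. Without spots of at least 50 Ttr UMIs per 10000, a limit set after the data were seen, 8 of the 10 genes were at least 2-fold higher, against 12.4% of 15838 genes. The ratio of 2 dpi to rest then went from 7.98 to 2.01 for Pcolce, from 4.6 to 3.68 for Serpinh1, from 8.06 to 6.01 for P4ha3 and from 2.16 to 1.86 for Plod2. Spots at 2 dpi were also shallower, with a median of 2482 UMIs against 16280 at rest. In spots with at least 5000 UMIs, 665 at 2 dpi and 948 at rest, the ratio was 4.66 for Serpinh1 and 8.48 for P4ha3. In the 26 fibrotic spots at 2 dpi the 10 genes had 0 to 12 UMIs each, and Lox, Loxl3 and P4ha3 had 0, which allows a level of up to 0.533 per 10000.

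The deleter slices were compared with wild type at 21 dpi. The study could not detect the deletion, and genotype coincides with the capture area. The comparison therefore cannot show what loss of Cthrc1-expressing cells does to the enzymes. Sex also differs, since deleter slice a carried Xist RNA and the other slices at 21 dpi carried Ddx3y RNA. Cthrc1 itself was at 1.16 and 1.09 per 10000 in fibrotic spots of the 7 dpi slices, 0.219 and 0.175 in wild type at 21 dpi, 0.101 and 0.132 in deleter slices and 0.71 and 0 at 2 dpi and rest, from 4 and 0 UMIs. The deleter values were below the wild-type values of the same day, with a log2 fold change of 0.73 for wild type over deleter (SE 0.23) that did not pass (adjusted p = 0.699). None of the 10 genes was called, and none had an unadjusted p under 0.05. Over all 13288 genes, 7 were called (0.0527%), and DESeq2 called 9 genes, none of them a member. The log2 fold changes of the members lay between -0.28 for Serpinh1 (SE 0.15, adjusted p = 0.806) and 0.30 for P4ha3 (SE 0.18, adjusted p = 0.829). These values do not show that the groups are alike. With 2 slices each, standard errors were 0.15 to 0.24.

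By the likeness of their log2 levels over the 12 sums (2 spot classes in 6 slices), which share slices and are dominated by the split of the classes, Serpinh1 was closest to Col5a2 (Pearson r 0.998), Col3a1 (0.997) and Bgn (0.995). Lox was closest to Col5a2 (0.992) and Serpinh1 (0.991), and Plod2 to the fibrillin gene Fbn1 (0.990). Plod1 was closest to Slc7a7 (0.997) and Inpp5d (0.995), and P4ha3 to Angpt1 (0.984), Slc36a2 (0.983) and Selenop (0.979). P4ha1 had the lowest top value, 0.977 with Des, an intermediate filament gene of muscle and mural cells.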

How the data were processed

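Spatial gene expression libraries of fresh-frozen mouse brain were aligned by the authors to mm10 with Space Ranger 2.0.0. The matrices deposited by the authors hold UMI counts that were not normalised, with other numbers giving each spot's place on the array. Whether reads were counted by strand is not given in the sources used here. Tissue spots were joined into connected pieces, 2 in each of the 4 areas, and each piece was taken as 1 slice of 1 mouse. The labels do not say which piece of the shared area is at rest. The smaller piece was taken as rest and the larger as 2 dpi, from the outlines in the study, not from expression.

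Counts were summed per slice and spot class and tested with edgeR 4.0.16 in R 4.3.3 (TMM, filterByExpr, quasi-likelihood test, Benjamini-Hochberg adjustment, threshold 0.05), with the 6 slices at 7 and 21 dpi in 1 fit. Standard errors were derived from the log2 fold change and its F statistic. DESeq2 1.42.0 was an alternative. The fits of fibrotic against Col1a1-free spots, of fibrotic spots between groups and of near against far spots were tried on simulated data. The fit of Col1a1-free spots between the times and the permutation test were not. Fibrotic spots are set by Col1a1, so genes abundant in the same cells differ between classes by construction of the classes. Poisson intervals (SciPy 1.17.1) cover counting error only, and a level at 0 UMIs is bounded by 3 UMIs. Gene overlaps are from GENCODE M21. The 10 members and all gene lists were chosen with earlier results of these data known. The text names all members, but only some of the list genes and some of the genes most like a member. P-values measure the spread between slices, each from 1 mouse. Image scale factors were not used.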

Additional observations from a re-analysis of the deposited data

Results flagged for a closer look

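P4ha3 differed between the times in its excess of fibrotic over Col1a1-free spots, by a test of that difference. The log2 excess was 0.74 at 7 dpi and 2.94 at 21 dpi in wild type, a difference of -2.20 (SE 0.40, adjusted p = 0.0176 by edgeR's quasi-likelihood test). In the deleter slices, also at 21 dpi, the log2 excess was 2.22. In fibrotic spots P4ha3 was lower in 2 of 2 slices at 7 dpi than in any slice at 21 dpi, and the share of all genes so placed was not counted. The range of the adjusted p over 17 alternatives was 6.07e-07 to 0.0942, and 15 of them kept the call.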

How the results depend on the processing

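The 29 calls of members in fibrotic over Col1a1-free spots were kept under every alternative run, and Loxl2 at 7 against 21 dpi was kept under 16 of 16 (log2 fold change 1.38 to 1.83, adjusted p from 1.92e-09 to 0.0249). P4ha3 in the same comparison was kept under 15 of 16 (adjusted p from 5.8e-07 to 0.0568), and P4ha3 at 7 dpi over Col1a1-free spots, not called, passed under 4 of 17. P4ha1 at 7 against 21 dpi ranged from -0.013 (without wild-type slice b at 21 dpi) to 0.66 when 1 slice was left out. Another 33 member values were not called, leaving aside Loxl1 and Plod1 in the difference of excess. They came from that difference, from wild type against deleter and from the comparisons within Col1a1-free spots. Of the 33, 16 turned sign under at least 1 alternative, none of them as a call. The Loxl2 difference of excess was among the 16 and ranged from -5.17 to 0.17. Counts of called genes moved as follows. For fibrotic over Col1a1-free spots at 7 dpi, leaving out 1 slice gave 3005 to 6321 genes. The difference of excess (443 genes) gave 1475 with no filter on low counts, 867 and 271 with at least 10 and at least 2 Col1a1 UMIs, 762 without spots of at least 50 Ttr UMIs (chosen after seeing the data), and 115 to 568 without 1 slice. Fibrotic spots at 7 against 21 dpi (606) gave 1319 with no filter, 172 with at least 2 Col1a1 UMIs, and 214 to 670 without 1 slice. Wild type against deleter (7) gave 171 with no filter, 2 with library sizes only, 4 with at least 10 Col1a1 UMIs, 0 (edgeR, with 539 at an unadjusted p under 0.05) with at least 2, 2 with spots of at least 5000 UMIs, 4 with Col1a2 for the classes, and 1 to 94 without 1 slice. Col1a1-free spots at 7 against 21 dpi (444) gave 1702 with no filter and 103 to 321 without 1 slice. Near against far (1110) gave 475 with at least 2 Col1a1 UMIs, 689 without the deleter slices, and 586 to 1049 without 1 slice. The cause was not tested. Members per 100 collagen UMIs differed by -6.13 with Col3a1 alone, and by -1.05 to 10.8 without 1 slice.

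The slice block pairs both spot classes of 1 slice. Without the replicate block the counts were 6361, 8128 and 7951 genes for fibrotic over Col1a1-free spots at 7 dpi, 21 dpi wild type and 21 dpi deleter, 378 for the difference of excess and 810 for near against far, all within 1.5 times those with it. It ended the near calls of Loxl1 and Plod1 and no other member's call. Between times or genotypes no paired analysis was possible, because these are different mice on different areas. Depth limits Loxl2 and Lox in Col1a1-free spots, with 0 to 28 UMIs a slice.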
